A study of Caenorhabditis elegans with 2 samples.

Results

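The dosage compensation genes described here are 10 loci whose products act on the X chromosomes of *Caenorhabditis elegans*: dpy-27, mix-1, dpy-26, dpy-28, capg-1, sdc-2, sdc-3, sdc-1, dpy-30 and dpy-21. They are 10 of 19973 nuclear protein-coding genes, and all 10 were found by name in the annotation of build ce11. The genes were chosen by their known role and with peak positions and signals from the same libraries in view, so every count of peaks at them is a description and was not tested. The libraries are chromatin immunoprecipitation sequencing (ChIP-seq) of ELT-3, a GATA-type transcription factor of the epidermis, in whole first-stage (L1) larvae of mixed sex. All larvae were of strain OP75, which carries the mutation unc-119(ed3) III and the transgene wgIs75, and a label of replicate 3 describes a line with a C-terminal GFP-FLAG tag on ELT-3. There is 1 group of 2 libraries, biological replicates 1 and 3, with no other genotype or stage, so no contrast between conditions could be made. Each library covers all tissues of the larva, and the tagged ELT-3 came from a transgene. Whether the antibody recognised the tag or ELT-3 itself is not settled by the labels.

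Dosage compensation in the worm lowers transcription from both X chromosomes of hermaphrodites to the output of the single male X. A condensin-like core does this. It holds the SMC proteins DPY-27 and MIX-1, the kleisin DPY-26 and the HEAT-repeat subunits DPY-28 and CAPG-1. SDC-2, with SDC-3 and SDC-1, brings the core to X, DPY-30 is a subunit shared with histone methyltransferase complexes, and DPY-21 is a histone H4 demethylase. All subunits but DPY-27 of the condensin core also serve in the condensin of cell division.

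Sequences around the summits are shown first, because sequence was not used to choose the genes. Each of the 7 is printed on the strand of its gene, 5′ to 3′, from the RefSeq sequence of assembly WBcel235 (ce11). The mix-1 sequence is the whole deposited region and the other 6 cover 101 bp centred on a summit. Capitals mark WGATAR, where W stands for A or T and R for A or G, which is the recognition sequence of GATA factors, and the letters GAGAGA. Both were sought on both strands, so the reverse complements CTATCT and TCTCTC are in capitals too. In mix-1 the capitals mark instead the box A and box B elements of RNA polymerase III genes. The first 4 belong to regions that passed the submitters' reproducibility threshold, and the last 3 to weaker candidate regions. The last 3 are a selection. The strongest candidate at capg-1, stronger than those at dpy-26 and sdc-1 and without GAGAGA, is not printed. How often GAGAGA occurs in the printed sequences is therefore not its frequency at the 10 genes.
sdc-2, chrX:11522232-11522332, plus strand: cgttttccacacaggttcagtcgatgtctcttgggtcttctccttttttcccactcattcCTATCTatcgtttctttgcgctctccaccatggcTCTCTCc
dpy-27, chrIII:3820313-3820413, minus strand: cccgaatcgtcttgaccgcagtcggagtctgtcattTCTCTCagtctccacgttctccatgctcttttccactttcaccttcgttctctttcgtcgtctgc
dpy-30, chrV:12191093-12191193, plus strand: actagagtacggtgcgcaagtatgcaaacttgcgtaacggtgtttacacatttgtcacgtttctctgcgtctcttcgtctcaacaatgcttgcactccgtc
mix-1, chrII:10840174-10840309, plus strand: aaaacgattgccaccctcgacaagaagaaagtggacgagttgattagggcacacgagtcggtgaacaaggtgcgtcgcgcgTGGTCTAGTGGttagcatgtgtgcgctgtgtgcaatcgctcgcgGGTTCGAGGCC
dpy-26, chrIV:12451410-12451510, minus strand: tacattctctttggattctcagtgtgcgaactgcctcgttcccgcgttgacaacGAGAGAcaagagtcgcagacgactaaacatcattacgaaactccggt
sdc-1, chrX:16275547-16275647, plus strand: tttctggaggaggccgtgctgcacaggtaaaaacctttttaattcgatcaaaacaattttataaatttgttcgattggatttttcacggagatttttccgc
dpy-21, chrV:17951331-17951431, minus strand: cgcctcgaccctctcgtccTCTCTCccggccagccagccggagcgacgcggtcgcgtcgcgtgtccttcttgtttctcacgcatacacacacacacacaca

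Of the 10 genes, 4 had a thresholded region in their locus, taken from 3 kb upstream of the 5′ end to the 3′ end: dpy-27, mix-1, sdc-2 and dpy-30. By the same rule, which asks for an overlap of at least 1 bp, 17.6% of all coding genes had one. The 5′ window is used here for the stretch that begins 1000 bp before a 5′ end and stops 500 bp after it. A summit in that window was found at 3 of the 10 (dpy-27, sdc-2 and dpy-30) and at 9.40% of coding genes. Regions that were also present in the list of each replicate lay at 3 of the 10 (mix-1, sdc-2 and dpy-30) and at 10.9% of coding genes. The loci of the 10 genes were long, with a median of 10.9 kb against 5.03 kb for all coding genes, and 9 of the 10 exceeded that median. Among coding genes with a locus at least as long as the median of the 10, 28.7% had a thresholded region. Of the members with loci that long, mix-1 and sdc-2 had one, and dpy-28, sdc-3 and dpy-21 had none. The loci of dpy-27 (9.66 kb) and dpy-30 (3.87 kb) are shorter. Among coding genes within the length range of the 10, 3.87 to 20.2 kb, it was 17.9%. The share was 19.5% for coding genes on X, where sdc-2 and sdc-1 lie, and 17.3% for those on autosomes. The part of locus length in the counts was not tested. A flank of 5 kb in place of 3 kb raised the count to 7 of 10, and the stronger 1470 of the 2940 thresholded regions gave 2 of 10, mix-1 and sdc-2. The share of coding genes under either changed rule is not given here, and the 17.6% does not apply to these counts.

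**Figure D1:**
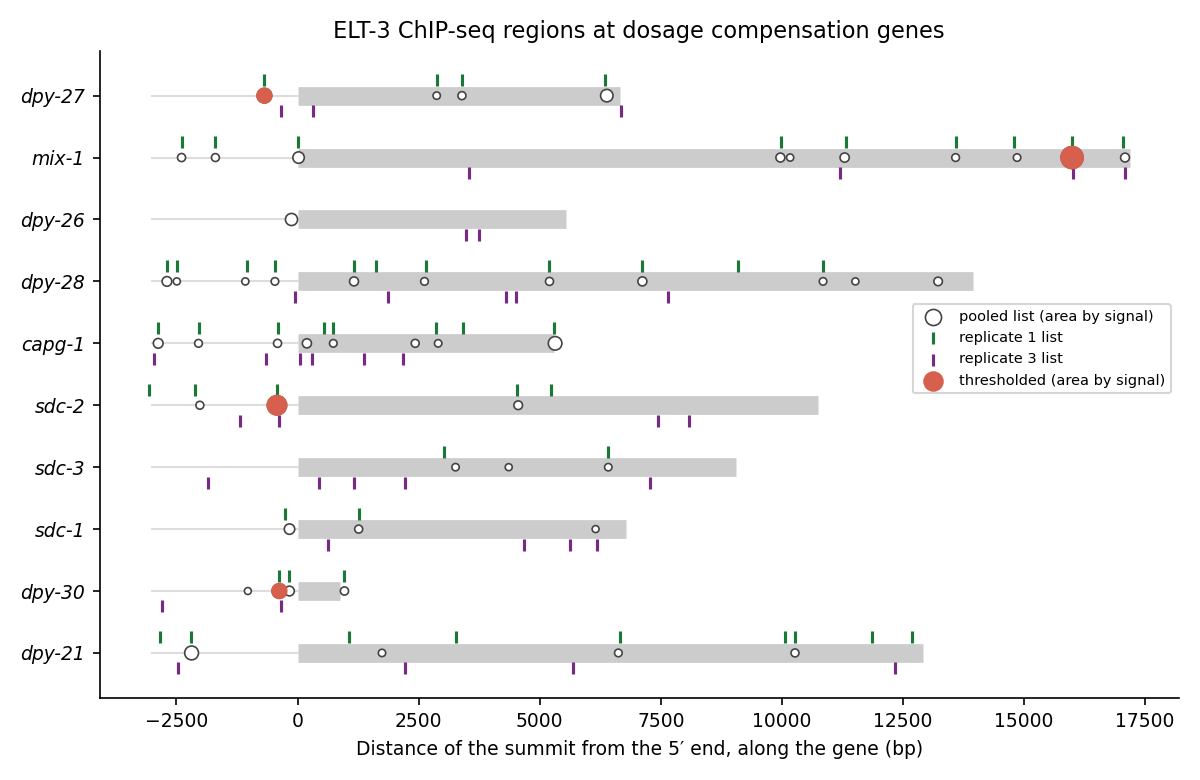
Summit positions at the 10 genes, in bp from the 5′ end along each gene (grey bar, gene; thin line, 3 kb upstream). Filled circles are thresholded regions and open circles pooled candidates, with area by signal, and ticks above and below are the lists of replicate 1 and replicate 3; the 4 filled circles lie 684 bp upstream of dpy-27, 425 bp upstream of sdc-2, 376 bp upstream of dpy-30 and 15992 bp into mix-1.

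The region upstream of sdc-2 was the only thresholded region of the 10 genes with a GATA site within 50 bp of its summit, and both libraries held it. SDC-2 is the protein that triggers assembly of the complex on X in hermaphrodites. The gene lies on chromosome X (11522707 to 11533450, plus strand, ce11), and the region (11522107 to 11522456) had its summit 425 bp upstream, in intergenic sequence. Its signal, the peak caller's measure of strength, was 66.3 in the thresholded list, rank 960 of 2940. In replicate 1 the overlapping region had a signal of 55.1 and rank 1242 of 30000, with its summit at the same base. In replicate 3 it had a signal of 9.996 and rank 264 of 24854, with its summit 49 bp away. The thresholded and pooled lists give a region the same signal, but the lists of replicate 1 and replicate 3 have scales of their own, so between libraries the ranks are set side by side. This was the highest rank of any member region in replicate 3. The GATA site, AGATAG on the minus strand (11522292 to 11522297), was centred 12.5 bp from the summit and is the CTATCT of the printed sequence. No other coding gene had the region in its locus.

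The region upstream of dpy-30 was present in both libraries but ranked lower. DPY-30 is a small protein of histone H3 methyltransferase complexes that also serves in dosage compensation. The gene is on chromosome V (12191519 to 12192385, plus strand), and the summit of its region (12190968 to 12191317) lay 376 bp upstream. The signal was 36.5, rank 2672 of 2940. Replicate 1 held it with a signal of 33.1 (rank 2842) and its summit 5 bp away, and replicate 3 with a signal of 4.39 (rank 5702) and its summit 27 bp away. The region fell outside the strongest 2940 of replicate 3. Its only WGATAR site, AGATAA, was centred 86.5 bp from the summit towards the gene, and so outside the printed stretch. The locus of the downstream gene rnp-1 also holds the region. A second pooled candidate, with its summit 168 bp upstream of dpy-30 and a signal of 14.9 (rank 7988), lay in the 5′ windows of both dpy-30 and rnp-1.

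Of the 2 libraries, only replicate 1 listed a region that overlapped the one upstream of dpy-27. DPY-27 is the SMC protein that sets the dosage compensation condensin apart from the other worm condensins. The gene is on chromosome III (3813018 to 3819679, minus strand), and the region (3820188 to 3820537) had its summit 684 bp upstream. Its signal was 36.6, rank 2668 of 2940. In replicate 1 it had a signal of 40.3 and rank 2176, with its summit 1 bp away. No region of replicate 3 overlapped it. A replicate 3 candidate (3819853 to 3820182, signal 3.31, rank 11465) ended just short of it, with its summit 339 bp upstream of the 5′ end. Another had its summit 319 bp downstream of the 5′ end (3.41, rank 10736). The thresholded region holds the annotated noncoding RNA gene R13G10.5 (3820206 to 3820273, minus strand), and the 3 kb flank of the divergent gene amx-1 reaches it. The sole WGATAR site of the region, AGATAA, was centred 168.5 bp from the summit, on the side away from the gene. At the other end of dpy-27, a pooled candidate with its summit in the 3′ UTR had a signal of 26.5 (rank 4057). It overlapped a replicate 1 region of rank 5209, with its summit 28 bp away. It also overlapped a replicate 3 region of rank 2377, whose summit was 286 bp away and past the 3′ end.

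The strongest thresholded region of the 10 genes lay deep inside mix-1, next to a snoRNA gene. MIX-1 is the SMC protein shared by all worm condensins. The gene is on chromosome II (10824246 to 10841424, plus strand), and the region (10840174 to 10840309), 136 bp long, had its summit 15992 bp downstream of the 5′ end, in the coding exon just before intron 13. The signal was 87.1, rank 515 of 2940. Replicate 1 gave 78.5 (rank 588) with the summit at the same base, and replicate 3 gave 5.76 (rank 2367) with the summit 13 bp away. The snoRNA gene M106.6 (10840317 to 10840391, plus strand) lies in intron 13 and starts 79 bp past the summit of the thresholded region.

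The mix-1 region holds no WGATAR. It holds a box A, TGGTCTAGTGG (10840255 to 10840265), and a box B, GGTTCGAGGCC (10840299 to 10840309), both on the plus strand, with 51 and 7 bases between the element and the snoRNA gene. Box A and box B are the promoter elements that recruit RNA polymerase III to tRNA genes and related small RNA genes. The search was chosen after the region had been seen beside a snoRNA gene, on both strands, with box A as its textbook consensus and box B as GGTTCGA followed by any pair of bases and CC. A box A followed by a box B on the same strand was found in 1.37% of 136 bp windows centred on the 2916 nuclear thresholded regions, in 4 of 74 of those with a summit within 100 bp of a snoRNA gene, and in 0.0857% of windows 500 bp to either side. Summits that close to a snoRNA gene made up 2.54% of nuclear thresholded summits. Whether the signal at mix-1 belongs to the snoRNA gene or to mix-1 was not tested. At the 5′ end of mix-1 itself there was a weaker candidate, 21 bp downstream, with a pooled signal of 21.7 (rank 5085) and rank 5239 in replicate 1. It had no region in replicate 3 and lay in the 5′ windows of both mix-1 and the divergent gene R06F6.12.

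Below the threshold, dpy-21 and capg-1 came closest. The lowest signal in the thresholded list was 34.2. For dpy-21, on chromosome V (17936282 to 17949193, minus strand), a pooled candidate (17951206 to 17951555) had a signal of 33.4 and rank 3026, with its summit 2188 bp upstream. It ranked 2611 in replicate 1, and overlapped a replicate 3 region of rank 12275 whose summit was 272 bp away. Its summit lay in the 5′ window of the neighbouring gene Y59A8B.24, not in that of dpy-21. The GC content of the 101 bp around it was 64.4%, the highest of the strongest regions at the 10 genes.

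For capg-1, on chromosome I (7634492 to 7639785, minus strand), the strongest candidate (7634292 to 7634641) lay at the far end of the gene. Its summit was 5318 bp from the 5′ end, between the 3′ ends of capg-1 and lrp-1, an LDL-receptor-related gene. The pooled signal was 32.0 (rank 3206) and the replicate 1 rank 2632, with no replicate 3 region. In replicate 3 the strongest region in the capg-1 locus was another, 2969 bp upstream (signal 6.24, rank 1737), in the 5′ window of F26A3.1. At the 5′ end of capg-1 the pooled candidates were weak, 12.6 (rank 10032) and 9.07 (rank 16791).

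The remaining condensin subunit genes, dpy-26 and dpy-28, differed in how many candidates they held. For dpy-26, which encodes the kleisin that closes the SMC ring, on chromosome IV (12445801 to 12451335, minus strand), the pooled list had a single region, with its summit 125 bp upstream (signal 24.8, rank 4369, −log10 q 3.46). Neither library's own list had a region overlapping it. Replicate 1 had no region anywhere in the dpy-26 locus, and replicate 3 had 2, with summits 3476 and 3755 bp into the gene. The dpy-28 locus, on chromosome III (10763131 to 10777076, plus strand), held 11 pooled candidates, 11 in replicate 1 and 5 in replicate 3. The strongest of them had a pooled signal of 14.5 (rank 8232), 2697 bp upstream and inside the neighbouring gene tasp-1. Of the 11 pooled candidates, 9 overlapped a replicate 1 region and 0 overlapped a replicate 3 region.

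The other SDC genes had no region near the threshold. At sdc-1, which encodes a zinc-finger protein, on chromosome X (16275763 to 16282534, plus strand), a pooled candidate lay 166 bp upstream with a signal of 17.5 (rank 6519). Its counterpart in replicate 1 ranked 5902 with a summit 100 bp away, and replicate 3 had none there. At sdc-3, on chromosome V (15039148 to 15048207, minus strand), the 3 pooled candidates were all in coding exons, with signals of 6.13, 7.04 and 7.18. The 5′ window of sdc-3 held no pooled or replicate 1 summit, and 1 of replicate 3, 449 bp downstream (signal 2.27, rank 21304). The nearest thresholded summit to sdc-3 was 37389 bp from its 5′ end, and to dpy-26 it was 47572 bp.

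**Figure D2:**
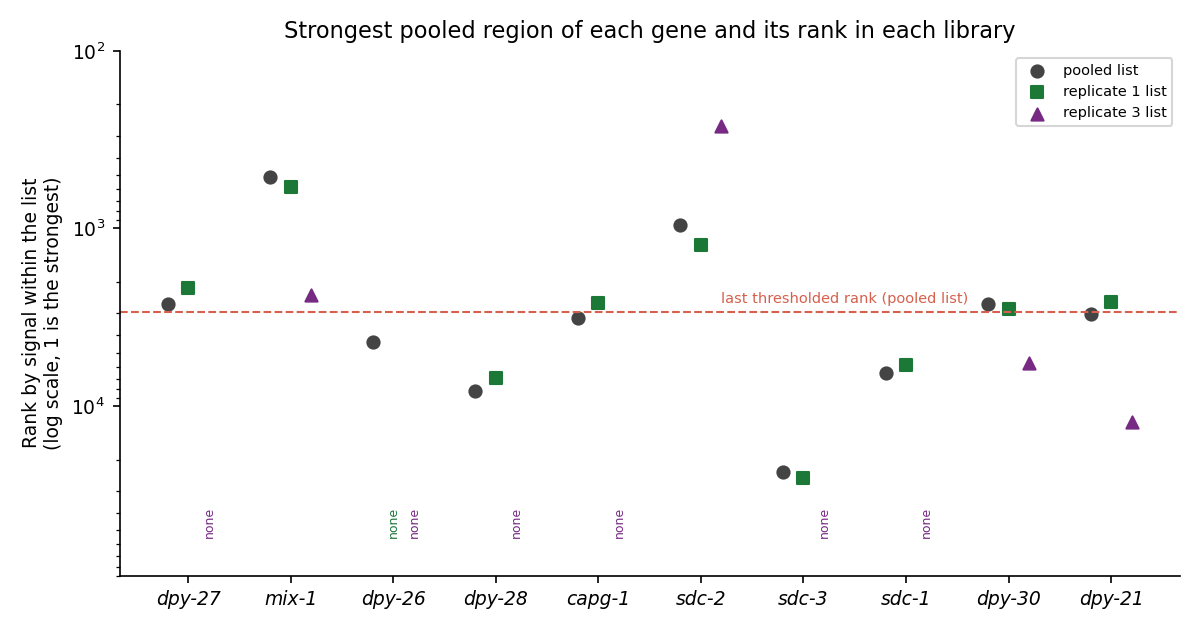
Rank by signal (log scale, strongest at the top) of each gene's strongest pooled region, and of the strongest region that overlaps it in replicate 1 and in replicate 3, with "none" where no region overlaps. The dashed line is rank 2940 of the pooled list, the last thresholded; sdc-2 ranked 264 in replicate 3, mix-1 ranked 515 in the pooled list, and a replicate 3 region is missing at 6 of the 10 genes.

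Candidate regions as such were common. Every one of the 10 loci held a pooled candidate, against 66.4% of coding genes, and every one held a replicate 3 candidate, against 75.1%. In replicate 1 it was 9 of 10, all but dpy-26, against 64.8% of coding genes. In the 5′ window, 8 of 10 had a pooled summit (41.6% of coding genes), 7 of 10 a replicate 1 summit (41.5%) and 6 of 10 a replicate 3 summit (35.4%). The 5′ windows of dpy-21 and sdc-3 held no pooled summit. Among each library's own 2940 strongest regions, replicate 1 had a region at 6 of the 10 loci (17.6% of coding genes) and replicate 3 at 4 (16.6%). The 4 in replicate 3 were dpy-27, mix-1, capg-1 and sdc-2. The dpy-27 region there lay at the 3′ end of the gene and the capg-1 region 2969 bp upstream.

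**Figure D3:**
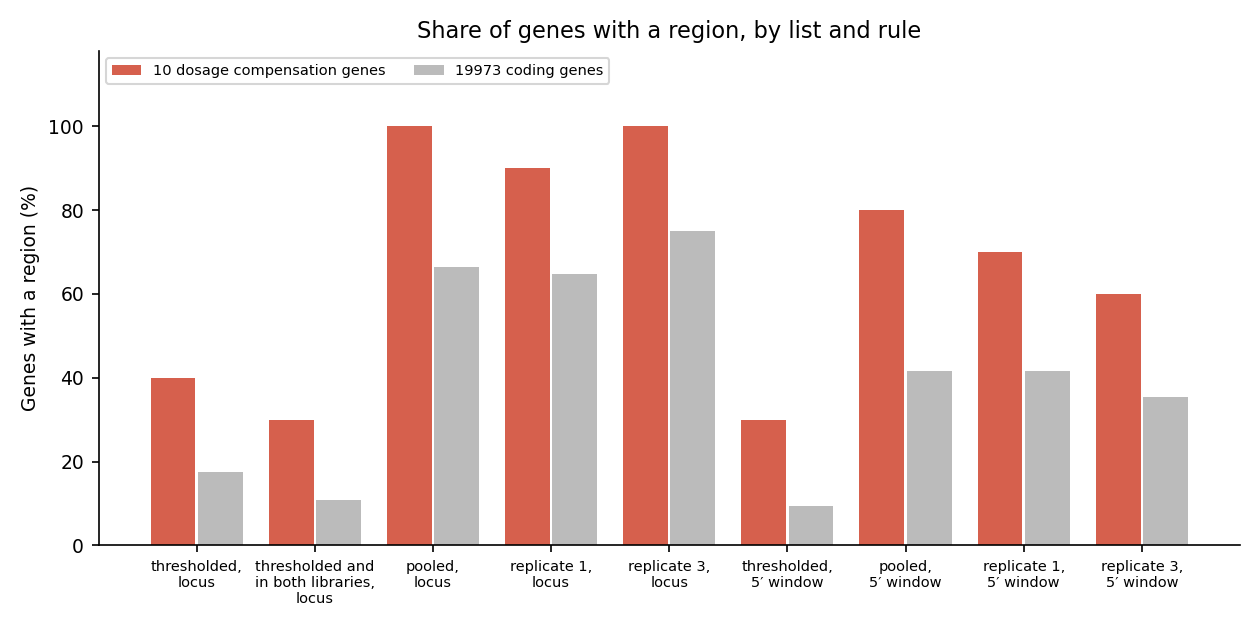
Percentage of genes with a region, for the 10 dosage compensation genes (red, left) and all 19973 coding genes (grey, right), by list and by rule (locus from 3 kb upstream to the 3′ end, or summit in the 5′ window). The share of the 10 genes is the higher in each pair, for example 40% against 17.6% for thresholded regions in the locus; 1 gene is 10% of the red bars.

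In all, the pooled list held 51 regions at the 10 loci, replicate 1 held 53 and replicate 3 held 39. Of the 51 pooled summits, 16 were in introns of the gene, 12 in its coding exons, 3 in its UTRs, 11 in intergenic sequence upstream, 1 past the 3′ end and 8 inside another coding gene. Of the 51 regions, 18 also lay in the locus of another coding gene, and 9 had a −log10 q of 2 or more. A replicate 1 region overlapped 43 of the 51 (84.3%, against 80.8% of nuclear pooled candidates), and a replicate 3 region 13 (25.5%, against 36.4%). Both replicates had a region at 11 and neither at 6. No share of all nuclear pooled candidates is given for these counts, nor for the places, shared loci and −log10 q above. They only describe the 51 regions. Taken from the side of replicate 1, 12 of its 53 regions overlapped one of replicate 3 (22.6%, against 26.7%). Among the 4 thresholded regions, 3 overlapped a replicate 3 region, against 58.6% of nuclear thresholded regions. Depth cannot be read from lists without read counts, and a missing region does not show missing signal.

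Per kb of locus, dpy-30 and capg-1 were the most crowded. The dpy-30 locus held 1.03 pooled regions per kb and capg-1 0.965, against a median of 0.235 for coding genes. The lowest of the 10 was dpy-26 with 0.117. The dpy-30 locus was the shortest of the 10, at 3.87 kb with its 3 kb flank. All 4 of its pooled regions also lay in the locus of another coding gene, as did 3 of the 8 at capg-1. In replicate 3 capg-1 (0.723) and dpy-30 (0.517) again came first, against a coding median of 0.233. The median over the 10 genes was 0.360 in the pooled list, 0.430 in replicate 1 and 0.303 in replicate 3, and the coding median in replicate 1 was 0.231.

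**Figure D4:**
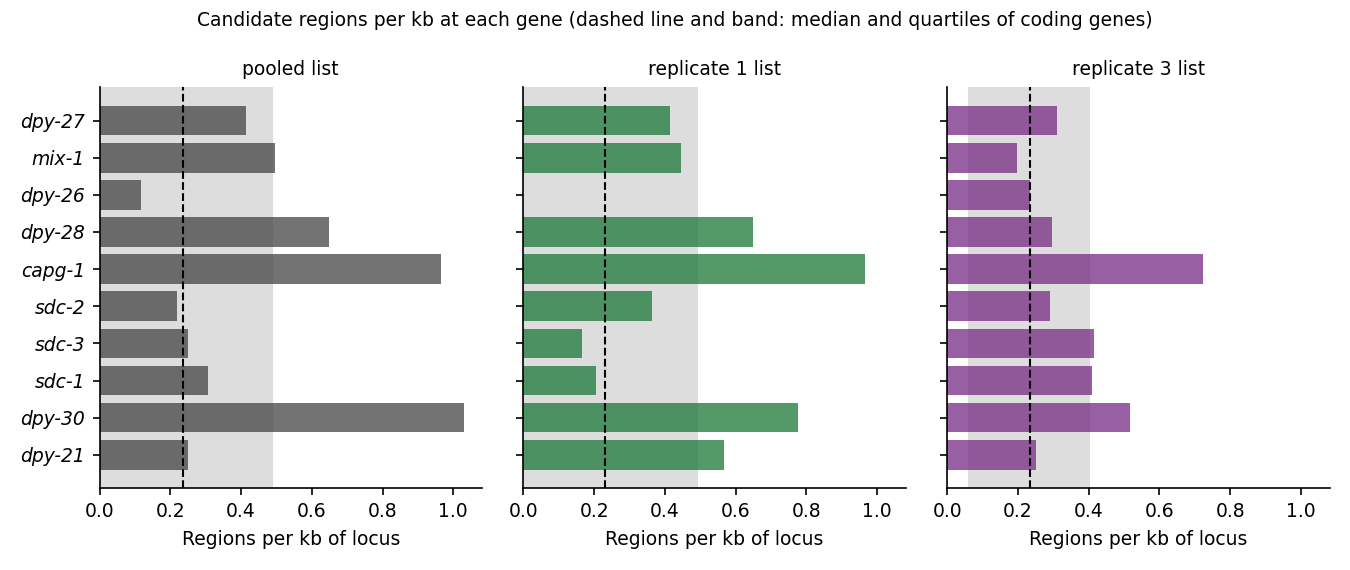
Candidate regions per kb of locus at each of the 10 genes in the pooled, replicate 1 and replicate 3 lists; dashed lines are the median of coding genes and grey bands the lower to upper quartile. The capg-1 and dpy-30 bars lie beyond the band in all 3 lists, and dpy-26 has no region in replicate 1.

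GATA sites were counted at the summits, in their flanks and in the 5′ windows. Of the 4 thresholded summits, 1 (sdc-2) had a WGATAR within 50 bp, against 34.8% of nuclear thresholded summits and 1223 of 5832 windows 500 bp to either side. Of the 8 such windows beside the 4 summits themselves, 4 had one. With so few summits 1 more would turn the comparison, and the count was 2 of 4 within 100 bp and 3 of 4 over the whole region. Among the 51 pooled candidate summits it was 11 (21.6%), against 23.3% of nuclear pooled candidates. All 10 genes had at least 1 WGATAR somewhere in the 5′ window, as did 96.1% of coding genes. The number ran from 1 at mix-1 to 9 at dpy-27, with a median of 2.5 for the 10 genes and 4 for coding genes, and dpy-27 alone was above 4. GAGAGA lay at 2 of the 4 thresholded summits, sdc-2 and dpy-27, against 25.1% of nuclear thresholded summits and 5.59% of their flanks. Of the 51 pooled candidate summits, 6 had it (11.8%, against 10.7%), dpy-26 and dpy-21 among them.

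Other genes of the dosage compensation and sex determination pathways were covered by 5 lists with 30 genes, and 12 of the 30 had a thresholded region in the locus, against the 17.6% of all coding genes. With the summit required in the 5′ window the count was 6 of 30, against 9.40%. The 17.6% is the share to set beside the count of each single list too. Locus length was not taken into account in the counts of these lists. Of the 12 strongest regions, 10 overlapped a replicate 3 region, against 58.6% of nuclear thresholded regions. All 12 overlapped a replicate 1 region. The share of nuclear thresholded regions that did so is not given, and it was 80.8% for nuclear pooled candidates. A WGATAR lay within 50 bp of the summit in 0 of the 12, against 34.8% of nuclear thresholded summits. With so few summits these counts were not tested. In 5 of the 12 the summit also lay in the 5′ window of another coding gene, and in 2 more it lay only in that of another gene.

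Of the histone methylation genes, 4 of 8 had a thresholded region, against 17.6% of all coding genes. The region at set-16 was the strongest of any list. At set-16, which encodes an MLL-type histone H3 methyltransferase, the signal was 208.1 (rank 55 of 2940), 187 bp upstream. The region ranked 58 in replicate 1 and 54 in replicate 3, and is shared with the 5′ window of drr-2. At ash-2, a partner of DPY-30 in these complexes, the signal was 76.7, 471 bp downstream of the 5′ end, and the summit is shared with the 5′ window of Y17G7B.20. Of the histone H4 methyltransferases, set-1 had 72.8 at 1493 bp upstream, in the 5′ window of jhdm-1, and set-4 had 67.1 at 262 bp upstream. The methyltransferase gene set-2 had a candidate below the threshold (30.3, rank 3460).

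In the list of chromatin and nuclear periphery genes, 2 of 5 had a thresholded region, against 17.6% of all coding genes. They were htz-1, the H2A.Z histone gene (109.8, 313 bp upstream, shared with wapl-1), and cec-4, a chromodomain anchor at the nuclear periphery (66.7, 1636 bp upstream). Of the other condensin subunits, 2 of 4 had one, hcp-6 (46.0, 123 bp upstream, shared with let-630) and kle-2 (35.0, 687 bp upstream, shared with C29E4.12), both of condensin II. The smc-4 locus had no thresholded region. Its pooled candidate of signal 11.3 overlapped a replicate 3 region of rank 849.

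Among genes that read the number of X chromosomes or set sexual fate, 4 of 13 had a thresholded region, against 17.6% of all coding genes. The list of X and autosomal signal genes holds 6 genes, with the switch gene xol-1 among them. Of these, 2 had a thresholded region, sea-2 (43.6, in an intron 1170 bp downstream) and ceh-39 (35.5, 2619 bp upstream). The switch gene xol-1 had only a candidate of 13.4 (rank 9223), 153 bp upstream. Of the 7 sex determination genes, 2 had one, the protease gene tra-3 (76.1, 1181 bp upstream) and the receptor gene tra-2 (43.2, 2706 bp upstream, inside C15F1.5). None of the strongest thresholded summits of these 4 genes lay in the gene's own 5′ window. Weaker pooled candidates did lie at the 5′ ends of fem-1 (16.9, 2 bp downstream) and fem-2 (19.1, 174 bp upstream), genes of male development. The pooled list held no region at all at her-1 and sea-1.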

How the data were processed

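ChIP-seq region lists of 2 libraries (1 group, biological replicates 1 and 3) were used in build ce11. Per the deposited manifest, candidate regions were made from the alignments of each library, or of both pooled, with a control file, and the thresholded list was derived from these 3. The sources used here do not give the aligner, the caller or their settings. The signal of a region, its strength, was taken as deposited. The deposited −log10 values are those of each region’s q-value and are constant (3.86) in the thresholded list. The start, end and summit were taken as deposited. The 4 lists in build ce10 were not used, and 0 columns of per-sample values were left unmapped. Labels give a size range of 150 to 350 bp for replicate 1, with no such range for replicate 3.

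Genes came from Ensembl release 115 (WBcel235, the assembly of ce11), with each gene taken over its annotated extent. Ranks were taken within each list, and the 2940 thresholded regions were the 2940 strongest of the pooled list, 24 of them mitochondrial. Depth is unknown. Members and lists were chosen with earlier results of these data known. All 10 members are named, as are coding genes that share a 5′ window with a member's thresholded summit and up to 4 genes of each list with the highest signals. No coding gene shared a 5′ window in that way. Neighbours of weaker candidates and smc-4, set-2, xol-1, fem-1, fem-2, her-1 and sea-1 were named after their values were seen. No test was run, since there is 1 group. Alternatives were other flanks, windows, overlaps, list thresholds, motif settings and each library alone. Python 3.11.15, numpy 2.4.6, pandas 2.3.3 and matplotlib 3.10.9 were used, and the overlap and motif functions were checked on planted regions.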

Additional observations from a re-analysis of the deposited data

How the results depend on the processing

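The counts rest on few genes, so 1 gene moves them by much. A flank of 5 kb in place of 3 kb gave 7 members and 7 thresholded regions, adding dpy-28 (3863 bp upstream, signal 209.2), capg-1 (3519 bp, 36.7) and sdc-1 (4412 bp, 35.1). The stronger 1470 thresholded regions gave 2 members and 2 regions in the locus, and 1 member in the 5′ window. Each library alone, with its own 2940 strongest regions, gave 4 to 6 members in the locus, against 16.6% to 17.6% of coding genes. Each library alone also gave 5 to 6 regions, 1 to 3 members in the 5′ window and 11 to 13 of the 30 other pathway genes. The share of coding genes is not given for the 5 kb flank, the stronger 1470 regions or the 5′ window with each library alone. Replicate 1 kept all 4 members and added capg-1 and dpy-21, while replicate 3 kept 3, without dpy-30, and added capg-1. Replicate 3 kept dpy-27 only through another region, with its summit past the 3′ end, 6671 bp from the 5′ end. WGATAR was found at 2 of the 4 summits within 100 bp and in 3 of the 4 regions as a whole, and GATAAG within 50 bp at 0. The 5′ window gave 6 of the 30 other genes. The other alternatives stayed within 1.5 times the count reported. The causes were not tested. No paired analysis was possible because both libraries belong to 1 group. No read counts are given, so what depth limits cannot be stated.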
